A study of Mus musculus with 30 samples.

Results

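The antioxidant enzymes of sperm are represented here by 10 genes chosen by name: Gpx4, Prdx1, Prdx4, Prdx6, Txnrd3, Txndc2, Txndc8, Sod1, Sod2 and Cat. All 10 were among the 16242 features quantified in sperm RNA 24 h after the last injection, and 2 of the 10, Gpx4 and Txndc2, were among the 3082 features quantified 46 days after it. The sperm came from C57Bl/6J males that received intraperitoneal injections of tesaglitazar, an agonist of both PPARα and PPARγ, at 10 µg/kg, or of vehicle, DMSO in saline. Injections began at 3 months of age and were given 2 times per week for 4 weeks. Tesaglitazar-injected males (Tesa-inj, labelled TESA) and vehicle-injected males (Vehicle-inj, labelled CTRL) gave 7 and 7 libraries at 46 days and 4 and 4 libraries at 24 h. Mature sperm were taken from the cauda epididymis by swim-up and treated with a buffer that lyses somatic cells. The libraries at 46 days were made from rRNA-depleted total RNA and those at 24 h from polyadenylated RNA, so time after injection and library type cannot be told apart. Nothing in the labels says that each library came from a separate male, so the tests measure the spread between libraries. The paper gives its sample sizes as animals left after outliers were removed. For tesaglitazar sperm its legend counts fewer Tesa-inj animals than the 46 days libraries used here, and names none left out.

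Sperm membranes are rich in polyunsaturated fatty acids, which makes them prone to peroxidation, and spermatozoa lose most of their cytoplasm, and with it much of their enzyme reserve, as they form. Superoxide dismutases turn superoxide into hydrogen peroxide, which catalase, the glutathione peroxidases and the peroxiredoxins then remove, while thioredoxins and their reductases return oxidised partners to the reduced state. Some of these enzymes have an additional task in the male germline: Gpx4 becomes a structural protein of the sperm midpiece, and Txndc2, Txndc8 and Txnrd3 are thioredoxin-system genes of the testis. Packing of the sperm nucleus with protamines shuts transcription down before sperm reach the epididymis, where vesicles from its epithelium can also pass RNA to them.

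Single libraries held 4538102 to 13513816 estimated counts at 46 days and 15337589 to 27709990 at 24 h. At 46 days, Rn18s-rs5 alone took 56.9% of all counts, and the scaling factors of the trimmed mean of M-values (TMM) ran from 0.0981 in Tesa-inj library KG8-02 to 8.15 in Vehicle-inj library KG8-14. At 24 h they ran from 0.771 to 1.57. Levels are given as CPM, estimated counts relative to the library size after this scaling, and are comparable between the libraries of 1 time point only. Transcript lengths were not used here, so the levels of the 10 enzymes are not ordered. A gene named as highest in CPM in a list had the highest mean over the libraries of that time, not corrected for length. Libraries KG8-11 to KG8-14, of which 2 were Tesa-inj and 2 Vehicle-inj, stood apart: dividing Lars2 counts by RP23-81C12.3 counts gave 0.763 to 1.03 in them and 0.124 to 0.218 in libraries KG8-01 to KG8-10. No label names a batch, and values of Gpx4 and Txndc2 at 46 days are given for both sets.

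No antioxidant enzyme passed the threshold for a difference between Tesa-inj and Vehicle-inj sperm, a Benjamini-Hochberg adjusted p under 0.05 by edgeR's quasi-likelihood test, among 2 tested at 46 days and 10 tested at 24 h. Over all features, 0 of 2866 (0%) passed this threshold at 46 days and 0 of 13752 (0%) at 24 h. An unadjusted p under 0.05 was reached by 0 of the 2 enzymes at 46 days, against 152 features (5.3%), and by 0 of the 10 at 24 h, against 372 features (2.71%). DESeq2 and limma voom also called 0 features at either time. By contrast edgeR's exact test, the test that the paper's methods give for these libraries, called 14 features at 46 days and 0 at 24 h. None of the 14 was an antioxidant enzyme. At 24 h, 4 of the 10 enzymes had a positive and 6 a negative log2 fold change of Tesa-inj over Vehicle-inj, with a median of -0.05, against a median of -0.02 over all features tested. Scaling by library totals moved the median of all features at 24 h by 0.21, and the values for Prdx1, Txndc2, Txndc8 and Cat were then positive, at 0.13, 0.05, 0.08 and 0.06. At 46 days the fold change was positive for Gpx4 and negative for Txndc2, and the median over all features tested was -0.03.

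**Figure D1:**
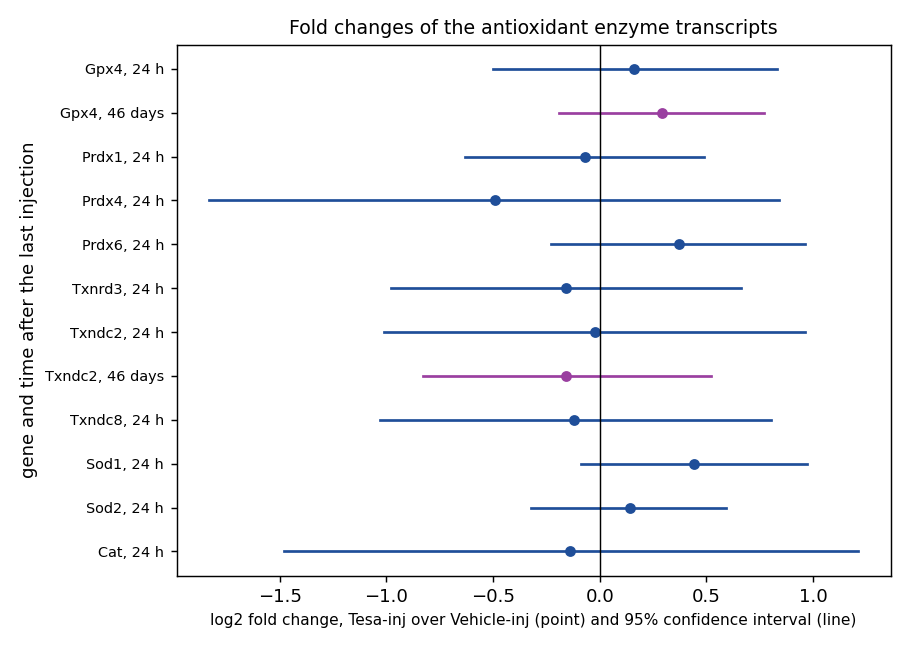
Log2 fold change of Tesa-inj over Vehicle-inj (points) with its 95% confidence interval (lines) for the 10 enzymes at 24 h and the 2 measured at 46 days, from edgeR's quasi-likelihood fit. Every interval includes 0; those of Prdx4 and Cat are the widest, and that of Sod1, from -0.09 to 0.97, has its lower end nearest to 0 among the positive estimates.

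Gpx4 (chr10:80047166-80056439, GRCm38) encodes the glutathione peroxidase that reduces phospholipid hydroperoxides within membranes; its mitochondrial, cytosolic and nuclear forms start at different sites and were summed in the deposited values. At 24 h it was measured at 303, 170, 311 and 273 CPM in Tesa-inj libraries ai_1, ai_3, ai_5 and ai_7, and at 240, 136, 299 and 268 CPM in Vehicle-inj libraries ai_2, ai_4, ai_6 and ai_8. The groups overlapped: ai_1 and ai_5 were slightly above every Vehicle-inj library, and each group held 1 library well below the rest, ai_3 in Tesa-inj and ai_4 in Vehicle-inj. The means were 264 ± 64.7 (SD, n = 4) and 236 ± 70.6 (SD, n = 4), a log2 fold change of 0.16 with a 95% confidence interval of -0.50 to 0.83 (adjusted p = 1 in edgeR's quasi-likelihood test). With single libraries left out the log2 fold change of Gpx4 ranged from 0.00 without ai_4 to 0.33 without ai_3.

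At 46 days Gpx4 rested on far fewer counts, from 7 in KG8-02 to 855 in KG8-14. Its lowest, median and highest levels were 6.18, 8.15 and 15.7 CPM in the 7 Tesa-inj libraries and 6.23, 7.66 and 10.9 CPM in the 7 Vehicle-inj libraries. As CPM of all counts, without the TMM scaling, Gpx4 ran from 0.799 to 76.2 in Tesa-inj and from 4.25 to 88.9 in Vehicle-inj. The ranges overlapped under both, and on the TMM scale KG8-11 and KG8-12 were the only Tesa-inj libraries above all Vehicle-inj libraries, KG8-12 on 37 counts. For Gpx4 this gave a log2 fold change of 0.29 with a standard error of 0.23 and a 95% confidence interval of -0.19 to 0.77 (adjusted p = 0.999 in edgeR's quasi-likelihood test). Among libraries KG8-01 to KG8-10, Gpx4 had a mean of 8.00 ± 1.34 CPM (SD, n = 5) in Tesa-inj and 8.14 ± 0.88 CPM (SD, n = 5) in Vehicle-inj, and the log2 fold change fitted on them alone was -0.02. Libraries KG8-11 and KG8-12 had 15.7 and 14.6 CPM, and the Vehicle-inj libraries KG8-13 and KG8-14 had 6.23 and 10.9 CPM. Fitted on these 4 libraries alone, a choice made after seeing the data, the log2 fold change of Gpx4 was 0.72 and did not pass the threshold. With a term for libraries KG8-11 to KG8-14 the log2 fold change was 0.23 with a standard error of 0.20, and it was 0.13 without KG8-11 and 0.16 without KG8-12. Scaled by library totals instead of TMM it was -0.64, under a scaling that moved the median of all features by -1.06.

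**Figure D2:**
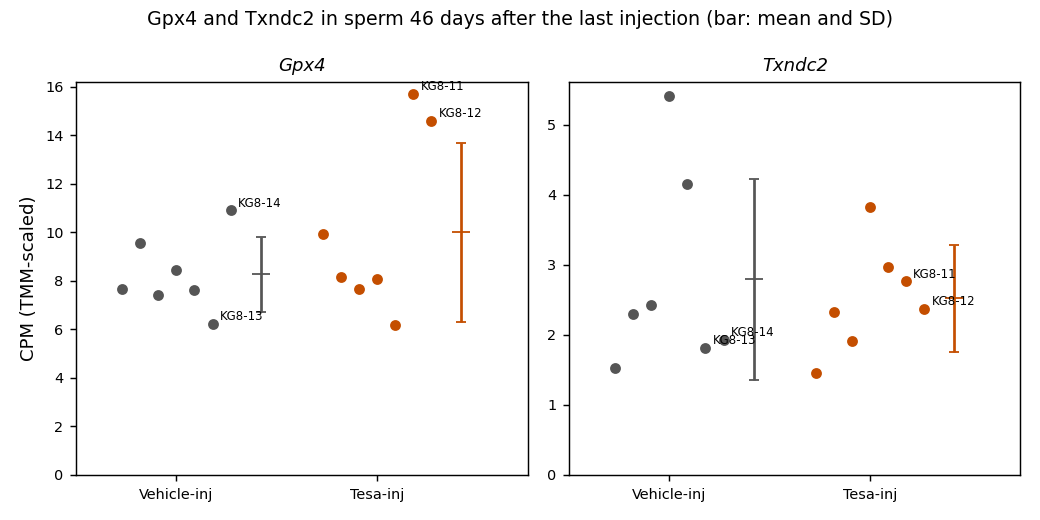
CPM after TMM scaling of Gpx4 and Txndc2 in each library 46 days after the last injection (points), with the mean and SD of each group (bar); libraries KG8-11 to KG8-14 are named. Gpx4 reached 14.6 and 15.7 CPM in KG8-12 and KG8-11, and no other library exceeded 10.9; for Txndc2 the groups overlap, with 2 Vehicle-inj libraries above every Tesa-inj library and 1 Tesa-inj library, at 1.45 CPM, below every Vehicle-inj library.

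The peroxiredoxins reduce peroxides through a reactive cysteine. Prdx1 (chr4:116685599-116700000) is a cytosolic member of the family; its 24 h levels were 80.6, 51.5, 70.6 and 73.8 CPM in Tesa-inj ai_1, ai_3, ai_5 and ai_7 and 72.2, 48.0, 95.7 and 74.4 CPM in Vehicle-inj ai_2, ai_4, ai_6 and ai_8. Every Tesa-inj library lay within the Vehicle-inj range, with the lowest library of each group again ai_3 and ai_4, and the log2 fold change was -0.07 with a 95% confidence interval of -0.63 to 0.49. It ranged from -0.20 without ai_4 to 0.09 without ai_6. A lncRNA gene, AV051173, overlaps Prdx1 in the annotation and was not among the quantified features by that name.

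Prdx6 (chr1:161240112-161251210) is the peroxiredoxin that also acts on oxidised phospholipids. It was at 73.9, 49.0, 71.9 and 77.0 CPM in Tesa-inj ai_1, ai_3, ai_5 and ai_7 and at 41.9, 37.7, 75.3 and 55.8 CPM in Vehicle-inj ai_2, ai_4, ai_6 and ai_8. The groups overlapped: ai_7 alone lay above all Vehicle-inj libraries, and Vehicle-inj ai_6 lay among the 3 highest Tesa-inj libraries. Tesa-inj over Vehicle-inj gave a log2 fold change of 0.37 with a standard error of 0.27 for Prdx6. With single libraries left out it ranged from 0.26 without ai_4 to 0.59 without ai_6, where the unadjusted p was 0.0484 and the threshold after adjustment was not passed. Prdx6b, a near copy of Prdx6, was quantified separately at 5.01 ± 2.02 CPM (SD, n = 4) in Tesa-inj and 4.19 ± 0.757 CPM (SD, n = 4) in Vehicle-inj; how reads were shared between the 2 copies was not tested.

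Prdx4 (chrX:155323918-155342272), the peroxiredoxin of the endoplasmic reticulum, was low, with 17 to 113 counts a library and more than 20 counts in 5 of 8 libraries. It ranged from 1.11 to 2.85 CPM in Tesa-inj and from 1.42 to 4.46 CPM in Vehicle-inj. Tesa-inj ai_1 was below all Vehicle-inj libraries and the other 3 were within their range. The log2 fold change of -0.49 had a 95% confidence interval of -1.83 to 0.84, that is 0.281-fold to 1.79-fold. It ranged from -0.72 without ai_3 to -0.18 without ai_6 and was -0.94 by limma voom.

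Of the thioredoxin system, Txnrd3 (chr6:89643988-89675529) encodes the reductase that carries its own glutaredoxin domain. Its levels at 24 h were 5.55, 10.3, 4.34 and 6.70 CPM in Tesa-inj ai_1, ai_3, ai_5 and ai_7 and 5.26, 6.71, 9.07 and 9.08 CPM in Vehicle-inj ai_2, ai_4, ai_6 and ai_8. Tesa-inj held both the highest library, ai_3, and the lowest, ai_5, and the groups overlapped. For Txnrd3 the log2 fold change was -0.16, with a 95% confidence interval of -0.98 to 0.66. With single libraries left out it ranged from -0.45 without ai_3 to 0.02 without ai_5.

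Txndc2 (chr17:65637505-65648874) encodes a thioredoxin of the sperm tail's fibrous sheath. At 24 h it was at 12.6, 5.36, 5.67 and 5.35 CPM in Tesa-inj ai_1, ai_3, ai_5 and ai_7 and at 8.27, 3.88, 5.82 and 11.4 CPM in Vehicle-inj ai_2, ai_4, ai_6 and ai_8. Tesa-inj ai_1 was the highest of all libraries while the other 3 Tesa-inj libraries lay close together inside the Vehicle-inj range. Txndc2 had a log2 fold change of -0.02 with a 95% confidence interval of -1.01 to 0.96, and this ranged from -0.41 without ai_1 to 0.27 without ai_8.

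At 46 days Txndc2 was near the limit of detection, with 2 to 151 counts a library and more than 20 in 6 of 14 libraries. The filter at this time needed 6. KG8-11, with 98 counts, was the only Tesa-inj library among them, the others being Vehicle-inj KG8-07, KG8-08, KG8-09, KG8-10 and KG8-14. Txndc2 was thus tested mainly through its counts in Vehicle-inj, and its fold change rests on few Tesa-inj counts. Its lowest, median and highest levels were 1.45, 2.37 and 3.82 CPM in Tesa-inj and 1.53, 2.30 and 5.40 CPM in Vehicle-inj. The groups overlapped, with Vehicle-inj KG8-09 and KG8-10 above every Tesa-inj library and Tesa-inj KG8-01 below every Vehicle-inj library. The estimated log2 fold change was -0.16 with a standard error of 0.32 (adjusted p = 0.999 in edgeR's quasi-likelihood test), -0.12 with a term for libraries KG8-11 to KG8-14, and from -0.33 without KG8-04 to 0.04 without KG8-09. Among libraries KG8-01 to KG8-10, Txndc2 had a mean of 2.50 ± 0.929 CPM (SD, n = 5) in Tesa-inj and 3.16 ± 1.58 CPM (SD, n = 5) in Vehicle-inj, and a log2 fold change of -0.40. In KG8-11 and KG8-12 it was at 2.76 and 2.37 CPM and in KG8-13 and KG8-14 at 1.81 and 1.93 CPM, a log2 fold change of 0.40 within these 4 libraries, so the direction differed between the sets, a difference that was not tested. With library totals it was -1.15, where the median of all features was -1.09. The lncRNA gene Gm35477, which overlaps Txndc2 in the annotation, was not quantified under that name at 24 h.

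Txndc8 (chr4:57984021-58009135), a thioredoxin of spermatids, was at 3.45, 3.98, 4.88 and 3.51 CPM in Tesa-inj ai_1, ai_3, ai_5 and ai_7 and at 5.68, 2.35, 3.93 and 5.17 CPM in Vehicle-inj ai_2, ai_4, ai_6 and ai_8. All 4 Tesa-inj libraries were inside the wider Vehicle-inj range. Txndc8 had a log2 fold change of -0.12 with a 95% confidence interval of -1.03 to 0.80, from 29 to 156 counts a library. With single libraries left out the log2 fold change ranged from -0.29 without ai_4 to 0.07 without ai_2.

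Of the superoxide dismutases, Sod1 (chr16:90220762-90226333), the copper- and zinc-dependent enzyme of the cytosol, had the smallest unadjusted p of the 10 enzymes at 24 h. It was at 166, 105, 161 and 138 CPM in Tesa-inj ai_1, ai_3, ai_5 and ai_7 and at 105, 78.6, 132 and 105 CPM in Vehicle-inj ai_2, ai_4, ai_6 and ai_8. Of the 4 Tesa-inj libraries 3 lay above every Vehicle-inj library, and ai_3 lay within the Vehicle-inj range, level with ai_2 and ai_8. The means were 142 ± 27.9 (SD, n = 4) and 105 ± 21.8 (SD, n = 4), a log2 fold change of 0.44 with a standard error of 0.24 (unadjusted p = 0.0959, adjusted p = 1 in edgeR's quasi-likelihood test). With each library left out in turn it was between 0.34 and 0.57. Without ai_3 it was 0.56 with an unadjusted p of 0.0409, and it passed the threshold after adjustment in none of these fits.

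Sod2 (chr17:13007839-13018119), the manganese-dependent enzyme of the mitochondrial matrix, varied least of the 10 enzymes, with a coefficient of variation of 13.9% over the 8 libraries at 24 h. It was at 33.3, 33.1, 28.2 and 33.7 CPM in Tesa-inj ai_1, ai_3, ai_5 and ai_7 and at 24.3, 25.6, 36.4 and 30.5 CPM in Vehicle-inj ai_2, ai_4, ai_6 and ai_8. All Tesa-inj libraries lay within the Vehicle-inj range, and the log2 fold change was 0.14 with a 95% confidence interval of -0.32 to 0.59. With single libraries left out it ranged from 0.07 without ai_2 to 0.26 without ai_6.

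Cat (chr2:103453904-103485153) encodes catalase, a peroxisomal enzyme that breaks down hydrogen peroxide. It was low, with 18 to 124 counts a library, and spread over a 5.66-fold range. Its levels were 2.28, 5.02, 0.887 and 2.73 CPM in Tesa-inj ai_1, ai_3, ai_5 and ai_7 and 3.18, 3.23, 1.5 and 4.11 CPM in Vehicle-inj ai_2, ai_4, ai_6 and ai_8. Tesa-inj held both the highest library, ai_3, and the lowest, ai_5. The log2 fold change of -0.14 had a 95% confidence interval of -1.48 to 1.21 and ranged from -0.61 without ai_3 to 0.17 without ai_5.

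**Figure D3:**
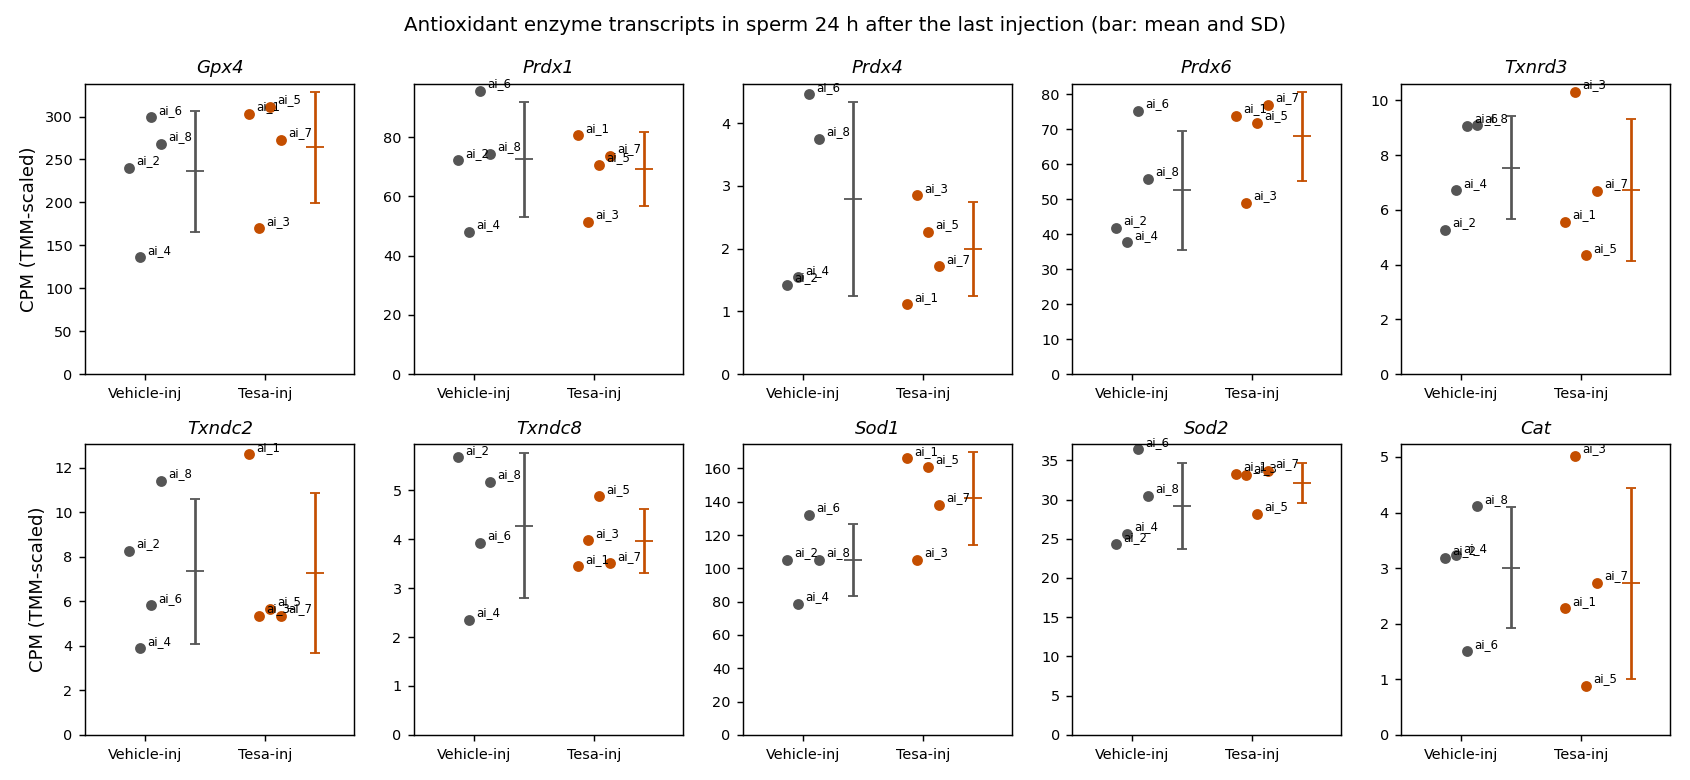
CPM after TMM scaling of the 10 enzymes in each library 24 h after the last injection (points, named by library), with the mean and SD of each group (bar); each panel has its own axis from 0. The groups overlap in every panel; ai_4 is the lowest of the 8 libraries for 6 of the 10 genes, and ai_3 is the highest for Txnrd3 and Cat.

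Whether the effect differed between the times could be tested for the 2 enzymes measured at both. The difference was estimated in a joint fit of both experiments, scaled over the features they share, and so does not equal the subtraction of the values fitted separately. The log2 effect at 46 days minus that at 24 h was -0.04 for Gpx4 (95% confidence interval -0.92 to 0.84) and -0.30 for Txndc2 (95% confidence interval -1.38 to 0.78), against a median of 0.09 over all features. With library totals it was -0.98 for Gpx4 and -1.19 for Txndc2, under a scaling that moved the median of all features by -1.14. By limma voom it was -0.21 for Gpx4 and -0.19 for Txndc2, with a shift of -0.11 in the median, and without KG8-12 it was -0.10 and -0.28. Neither passed the threshold (adjusted p = 0.994 for both in edgeR's quasi-likelihood test), as 0 of 2680 features (0%) did; 0 of the 2 and 127 of the 2680 features (4.74%) had an unadjusted p under 0.05. By limma voom 9 features passed, neither Gpx4 nor Txndc2 among them.

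The 8 enzymes without a value at 46 days included some that were well measured at 24 h. No feature quantified at 46 days exceeded 20 counts in fewer than 3 libraries. Of the features tested at 24 h, 2862 of 13752 (20.8%) were quantified at 46 days. Among the 531 features with a mean of 64 to 256 CPM at 24 h, 63.1% were present at 46 days, and in this class Gpx4 was present while Sod1, at a mean of 124 CPM, and Prdx1, at 70.8 CPM, were not. Among the 5457 features with a mean of 4 to 16 CPM, 18.9% were present, and Txndc2, at 7.30 CPM, was one of them, unlike Txnrd3 and Txndc8.

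Across the 8 libraries at 24 h the enzymes did not vary alike. Library ai_4 (Vehicle-inj) was the lowest for Gpx4, Prdx1, Prdx6, Txndc2, Txndc8 and Sod1, and 9 of the 10 enzymes were below their own mean in it on the log2 scale, Cat being the exception. The share of all features that were lowest or below their mean in ai_4 is not given here. Whether its low values are particular to the enzymes was not tested. Patterns were compared by the root mean square difference in log2(CPM + 0.5), centred on each gene's mean over the 8 libraries. The median difference of all tested features from an enzyme ran from 0.58 for Sod2 to 0.81 for Cat. The nearest features were picked from all those tested, so small differences follow in part from the choice. Gpx4 and Prdx1 differed by 0.18 and Prdx6 and Sod1 by 0.17. Cat was farthest from Gpx4, at 0.91, and its nearest enzyme was Txnrd3, at 0.49; ai_3 was the highest library and ai_5 the lowest for both. Cat had 18 to 124 counts a library, and the part of counting noise in these differences was not tested. As a description over these 8 libraries, the features nearest to Gpx4 were Nme2 (0.07) and Cox14 (0.08), to Prdx1 Minos1 (0.08) and Tomm22 (0.10), and to Prdx6 Mien1 (0.07) and Smdt1 (0.07). The nearest to Sod1 were 2410015M20Rik (0.09) and Prdx2 (0.09), a further cytosolic peroxiredoxin. Those nearest to Sod2 were Surf4 (0.09) and Aldh16a1 (0.10), and those nearest to Txndc8 were Psme3 (0.08) and Tln2 (0.13). Txndc2 was nearest to RP24-124K4.5 (0.14) and RP23-188K3.3 (0.17), and Txnrd3 to Ttf2 (0.15) and Pigv (0.17). The low genes Prdx4 and Cat had the least close neighbours, Twistnb (0.18) and Sypl (0.18) for Prdx4 and the repeat RLTR31C_MM (0.20) and Larp4 (0.25) for Cat.

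Among markers of late spermatids, ai_4 was the lowest library for 11 of 12 and ai_3 among the 2 lowest for 8 of 12, against 6 of 10 and 3 of 10 antioxidant enzymes. The shares over all features are not given here. Akap4 was the marker not lowest in ai_4, and its level in ai_3, 45.9 CPM, was exceeded in ai_8 only. All 12 were quantified at 24 h, their summed level was 4840 CPM in ai_3 and 3190 CPM in ai_4 and between 6180 and 10900 CPM in the other 6 libraries, and Odf1 had the highest mean CPM, with 1280 and 978 in ai_3 and ai_4. Of 12 leukocyte markers 11 were quantified, summing to 1300 CPM in ai_3, 1210 CPM in ai_4 and 1550 to 2580 CPM elsewhere; most of this was Cd52, at 1030 to 2380 CPM, which the epididymis also makes, and the other 10 ranged from 0.642 CPM, for Ptprc, to 103 CPM, for Cd74. Of 12 epididymal markers 8 were quantified, with Spink8 the highest in mean CPM, though not the highest in every library. Their sums were 1690 CPM in ai_3, 1780 CPM in ai_4 and 1400 to 3350 CPM elsewhere. Lcn5, Lcn8, Lcn9 and Wfdc2 were not among the features, and Defb20 was at 0 in ai_3. Of 8 erythrocyte markers 4 were quantified, with sums of 53.5 to 270 CPM, and Hba-a2 had the highest mean CPM. All 8 smooth muscle markers were quantified, with sums of 42.3 to 113 CPM, and Mylk had the highest mean CPM. In each of ai_1, ai_2, ai_3 and ai_6, 1 smooth muscle marker was at 0. The part of these RNAs in the levels of the antioxidant enzymes was not tested, and in bulk RNA fewer cells of a type and less RNA per cell cannot be told apart. By edgeR's quasi-likelihood test 0 of these markers reached an unadjusted p under 0.05 at either time. At 24 h the log2 fold change was positive for 5 of 12 spermatid, 5 of 11 leukocyte and 4 of 8 epididymal markers. It was positive for 0 of 4 erythrocyte markers and for 7 of 8 smooth muscle markers, the latter with a median of 0.42. Of all features tested at 24 h, 47.8% were positive. At 46 days 11 of the 12 spermatid markers were present, led by Prm2, and summed to 588 ± 142 CPM (SD, n = 7) in Tesa-inj and 604 ± 149 CPM (SD, n = 7) in Vehicle-inj; they were at 779 CPM in KG8-11 and 375 CPM in KG8-12, the libraries with the highest Gpx4. None of the leukocyte, epididymal, erythrocyte or smooth muscle markers was among the 46 days features. Of all features tested at 24 h, 20.8% were. That share was 58.8% at 256 to 1024 CPM, the class of Spink8, and 83.3% above it, the class of Cd52. The library types differ between the times, and the reason for the absence was not tested.

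The wider antioxidant network was followed in 89 further genes in 9 lists. At 24 h 81 of them were quantified and 80 tested; by edgeR's quasi-likelihood test 0 passed the threshold after adjustment and 0 reached 0.05 before it, and 52 had a positive and 28 a negative log2 fold change, with a median of 0.11, against -0.02 over all features, of which 47.8% were positive. With each library left out in turn, 47 to 55 of the 80 were positive. The 5 further peroxiredoxin and sulfiredoxin genes had log2 fold changes of 0.06 to 0.44, Prdx2 being at 0.44 (standard error 0.23), and the highest in CPM, Prdx5, was at 60.0 to 112 CPM in Tesa-inj and 48.4 to 79.2 CPM in Vehicle-inj. Of the further glutathione peroxidases the highest in CPM was Gpx3, a secreted form, at 917 to 2740 CPM in Tesa-inj and 986 to 2640 CPM in Vehicle-inj. Gstm5, a glutathione transferase of the germline, was at 586 to 1450 CPM in Tesa-inj and 437 to 1590 CPM in Vehicle-inj. Txnip, the thioredoxin inhibitor, was at 52.7 to 66.5 CPM and 53.0 to 93.4 CPM. In the remaining lists the highest in CPM were Ccs, the copper chaperone of Sod1, with a log2 fold change of -0.01, the selenoprotein gene Selenok with 0.19, the methionine sulfoxide reductase Msrb1 with 0.53, G6pdx with 0.22 for NADPH supply and Hmox2 with 0.05 among NRF2 regulators and targets. Msrb1 was at 37.8 to 77.5 CPM in Tesa-inj and 31.8 to 53.3 CPM in Vehicle-inj, ranges that overlapped. Msrb3, of the same list, was lower in Tesa-inj by its estimate, -0.67 on the log2 scale with a standard error of 0.34, without passing the threshold, at 9.29 to 27.3 CPM in Tesa-inj and 19.1 to 31.9 CPM in Vehicle-inj.

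At 46 days 8 of the 89 genes were quantified and tested: Gpx3, Gstm5, Oplah, Eefsec, Secisbp2, Msrb3, Me1 and Mafk. None of the 8 passed the threshold by edgeR's quasi-likelihood test, 0 reached 0.05 before adjustment, and 6 had a positive and 2 a negative log2 fold change, where 46% of all features tested were positive. Without KG8-12 the count of positive values was 4 of the 8. Gstm5 was at 47.4 to 76.8 CPM in Tesa-inj and 27.4 to 83.1 CPM in Vehicle-inj, and Msrb3 at 25.5 to 39.5 CPM and 22.3 to 34.8 CPM. Eefsec, the elongation factor that inserts selenocysteine into proteins such as Gpx4, was at 7.90 to 19.3 CPM and 11.4 to 18.6 CPM, an estimate of -0.13 on the log2 scale. At 24 h Eefsec was at 0.69 to 12.2 CPM in Tesa-inj and 9.31 to 16.1 CPM in Vehicle-inj, ranges that overlapped, and its estimate was -1.23 with a standard error of 0.71, short of the threshold. Library KG8-12 stood apart for Me1, with 18.2 CPM against at most 3.54 CPM in the other 13 libraries, and for Oplah, with 43.9 CPM against at most 10.9 CPM. The log2 fold changes of Me1 and Oplah were 0.73 and 0.59 with this library and -0.14 and -0.32 without it.

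The promoters of 9 of the 10 enzymes, 13 starts in all, were matched by symbol in RefSeq sequences of GRCm38.p6 that run from 250 bases before to 50 after each start. They were searched on both strands for AGGTCA, the hexamer repeated in the elements of nuclear receptors such as the PPARs that tesaglitazar binds, for TGACGTCA, the cAMP response element, and for TGACNNNGC, the core of the antioxidant response element. AGGTCA was found in 3 of these 13 promoters, 1 each of Gpx4, Txndc2 and Cat, and in 16.3% of all 32851 promoters. TGACNNNGC was found in 3 of the 13, 1 each of Prdx1, Txndc2 and Sod1, and in 12.4% of all, and TGACGTCA in 0 of the 13 and in 1.79% of all. In Txndc2 the AGGTCA match, on the complementary strand, overlaps the TGACNNNGC match. A match is a description of letters, and binding was not measured. The stretches of 30 bases around 5 of the matches are shown in the direction of transcription, with the match in capitals, because they hold the letters searched for: AGGTCA or its complement in Cat (chr2:103485340-103485369, minus strand), Gpx4 (chr10:80053931-80053960, plus strand, before the most downstream of its 4 starts, inside the gene) and Txndc2 (chr17:65639942-65639971, minus strand, inside the gene), and TGACNNNGC or its complement in Prdx1 (chr4:116685456-116685485, plus strand) and Sod1 (chr16:90220696-90220725, plus strand).
Cat: tgtgactctcagAGGTCAgagaacaccagc
Gpx4: catagcgggctcTGACCTggtcacgcgccc
Txndc2: ggctttgaacctTGACCTagcctagctgtg
Prdx1: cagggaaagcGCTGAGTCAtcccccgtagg
Sod1: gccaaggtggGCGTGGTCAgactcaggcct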

How the data were processed

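Sperm RNA was sequenced by the authors from rRNA-depleted total RNA (46 days) and polyadenylated RNA (24 h). Per the submitters' processing notes the reads were trimmed with Trim Galore and quantified with Salmon 0.11.2 for GRCm38, and the deposited values are estimated counts per gene or repeat family, not normalized by the authors. The serum table was not used here. All columns of the 2 sperm tables matched a sample. Estimated counts were rounded to whole numbers. Each time point was fitted separately with edgeR 4.0.16 in R 4.3.3, with TMM over all features, a filter that kept features exceeding 20 counts in 6 or more libraries (46 days) or 4 or more (24 h), and Benjamini-Hochberg adjustment over all tested features. Intervals are 95% confidence intervals from the quasi-likelihood fit. No enzyme in a table failed this filter, so the permutation test planned for such genes was not needed. The difference between time points was tested over features passing both filters, with a term for the experiment. The rule for named genes took all 10 enzymes, in each related list any gene with an unadjusted p under 0.05 and the most abundant gene of each table, and the 2 features nearest in pattern to each enzyme at 24 h; Oplah, Secisbp2, Prdx6b and the markers Akap4, Ptprc, Cd74 and Defb20 lie outside it and were named after their values were seen. Names were matched to GRCm38.p6 RefSeq, which held 2081 of 3082 names at 46 days and 12848 of 16242 at 24 h. Libraries of 1 group differed by more than sampling noise in every pair. The alternatives were edgeR's exact test, DESeq2 1.42.0, limma 3.58.1 voom with quality weights, other scalings and filters, a term for libraries KG8-11 to KG8-14, libraries KG8-01 to KG8-10 alone, libraries KG8-11 to KG8-14 alone, which was added after seeing the data, and each library left out; for the difference between the times they were library totals, limma voom and leaving out KG8-12. All deposited sperm libraries were used. The fits were tested on simulated data with changes much larger than the estimates for the enzymes. Those simulations do not show how often changes of the enzymes' size would be found. Plots were drawn with matplotlib 3.10.9 in Python 3.11.15. The enzymes and the lists were chosen with earlier results of these data known.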

Additional observations from a re-analysis of the deposited data

Results flagged for a closer look

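In 24 groups of libraries, 12 comparisons of 1 enzyme at 1 time with 2 groups each, the gap between an extreme library and its nearest neighbour was compared with the range of the group. In 2 groups it was larger than Dixon's 95% critical value, which chance gives in about 1 of 20 groups. Txndc2 at 24 h was at 12.6 CPM in Tesa-inj library ai_1, against 5.67 CPM in the next highest Tesa-inj library, a gap of 0.956 of the range. Sod2 at 24 h was at 28.2 CPM in Tesa-inj library ai_5, against 33.1 CPM in the next lowest, a gap of 0.892 of the range.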

How the results depend on the processing

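The count of antioxidant enzymes with an adjusted p under 0.05 was 0 at 46 days and at 24 h under each alternative run, the fits without each library included, and 0 for the difference between the times with library totals, by limma voom and without KG8-12. Over all features the count at 46 days was 14 by edgeR's exact test, and the count for the difference between the times was 9 by limma voom. The count of features with an unadjusted p under 0.05 also moved. At 46 days it ranged from 73 in libraries KG8-01 to KG8-10 alone to 208 without KG8-04. At 24 h it ranged from 151 with library totals to 1022 by limma voom. The causes were not tested. Of the log2 fold changes of single enzymes under alternatives, 46 of 50 at 46 days and 144 of 160 at 24 h kept their sign. These fits share libraries, so the values are not independent. At 24 h the log2 fold change of Txndc2, -0.02 in the main fit, changed sign in 5 of the 8 fits with a library left out. The log2 fold changes of Prdx1 and Cat did so in 2 of 8 each. At 46 days that of Gpx4 was -0.64 with library totals and -0.02 in libraries KG8-01 to KG8-10 alone, and that of Txndc2 was 0.40 in libraries KG8-11 to KG8-14 alone, an alternative added after seeing the data, -0.40 in KG8-01 to KG8-10 alone and -1.15 with library totals. With library totals at 24 h it was 0.13 for Prdx1, 0.05 for Txndc2, 0.08 for Txndc8 and 0.06 for Cat, and 0.35 for Gpx4, -0.38 for Prdx4, 0.56 for Prdx6, 0.00 for Txnrd3, 0.63 for Sod1 and 0.33 for Sod2; this scaling moved the median of all features by -1.06 at 46 days and 0.21 at 24 h. By limma voom it was 0.16 for Gpx4 and -0.18 for Txndc2 at 46 days and, at 24 h, 0.10 for Gpx4, -0.10 for Prdx1, -0.94 for Prdx4, 0.30 for Prdx6, -0.35 for Txnrd3, -0.30 for Txndc2, -0.25 for Txndc8, 0.40 for Sod1, 0.09 for Sod2 and -0.20 for Cat. With each library left out it ranged from -0.33 to 0.04 for Txndc2 and 0.13 to 0.37 for Gpx4 at 46 days and, at 24 h, from 0.00 to 0.33 for Gpx4, -0.20 to 0.09 for Prdx1, -0.72 to -0.18 for Prdx4, 0.26 to 0.59 for Prdx6, -0.45 to 0.02 for Txnrd3, -0.41 to 0.27 for Txndc2, -0.29 to 0.07 for Txndc8, 0.34 to 0.57 for Sod1, 0.07 to 0.26 for Sod2 and -0.61 to 0.17 for Cat; the cause was not tested. Of 80 such values at 24 h, 2 had an unadjusted p under 0.05, Prdx6 without ai_6 and Sod1 without ai_3. The log2 fold changes of the related genes Me1 and Oplah at 46 days, where leaving out libraries was added after seeing the data, ranged from -0.14 to 0.97 and -0.32 to 0.77. Mean levels moved by more than their SD for 3 of 4 enzyme groups at 46 days and 1 of 20 at 24 h as a share of all counts, and for 4 of 4 and 20 of 20 as a share of counts outside the 5 features with most counts; for Gpx4 at 46 days the means were then 15.1 and 84.1 in Tesa-inj and 23.5 and 78.4 in Vehicle-inj. The fewest counts behind a level were 7 for Gpx4 and 2 for Txndc2 at 46 days, both in KG8-02, and 17 for Prdx4 and 18 for Cat at 24 h; the part of depth in the width of the intervals was not tested. Levels per transcript length and protein features were not run. No paired analysis was run because the Tesa-inj and Vehicle-inj libraries share no replicate number. At 24 h the library numbers alternate between the groups, and no label says that neighbours belong together.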
